A study of Mus musculus with 9 samples.

Results

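The genes of the cell cycle and of mitosis were followed in the liver of 9 male Wistar rats by RNA-seq. The set was a list of 40 gene symbols that cover the entry into the cycle, the copying of DNA, and mitosis. Each symbol was looked for by name in the deposited table of counts per gene, and 38 of the 40 were found among its 19686 genes. Ccnb2 and E2f1 were not matched in the table and were not analysed here. The rule that picks the members from the table uses gene names only, and the list was drawn up with earlier results of these data known.

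The study examined whether Danggui-Shaoyao-San (DSS), a traditional Chinese herbal formula, acts on the metabolic disorder of rats fed fructose. The control group (n = 3) drank purified water and received saline by gavage every day. The model group (n = 3) drank 15% fructose and received the same saline. The DSS group (n = 3) drank 15% fructose and received a DSS extract by gavage at 1.8 g/kg. All groups were treated for 8 weeks and fasted for 12 h before the livers were taken. The labels call the third group DSS, and the study's methods name a methanol-water extract (HME) as the one that went to transcriptomics. There was no group that drank water and received the extract, so DSS was seen only on top of fructose. The labels name the mouse as organism but a rat strain, Wistar, and the table uses rat gene identifiers, so all libraries were taken to be from rats. Each library was read as 1 rat.

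A cell that divides passes from G1, in which D- and E-type cyclins drive the decision to enter the cycle, through S phase, in which the MCM helicase opens the DNA at the origins, to mitosis, in which kinases, kinetochores and motors share out the chromosomes. Most hepatocytes of the adult liver rest outside the cycle, and many are polyploid because they copied their DNA without completing cytokinesis. Transcripts of mitosis are therefore scarce in whole liver RNA, while some genes of G1 and of DNA synthesis have other uses in resting cells and stay detectable.

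The 38 genes together were lowest in the DSS group. Their raw counts summed to 5799, 2577 and 3024 in control rats 1, 2 and 3, to 3265, 2684 and 2935 in model rats 1, 2 and 3, and to 1814, 2006 and 2329 in DSS rats 1, 2 and 3. The highest sum of the DSS group (2329, exact 95% Poisson interval 2235 to 2426) lay below the lowest sum of the other groups, that of control rat 2 (2577, interval 2478 to 2678). These intervals cover counting error only. Total counts per library ranged from 14345819 to 26837227, so the sums were also put on the scale of CPM, the counts scaled to a normalized library of fixed size. The summed CPM was 232, 154 and 202 in the control rats, 139.8, 173 and 181 in the model rats, and 98.7, 108 and 120.4 in the DSS rats. All 3 DSS rats lay below all 6 other rats, and the control and model groups overlapped. The group means were 196 ± 39.6 (SD, n = 3) CPM in the control, 165 ± 21.8 in the model and 109 ± 10.9 in the DSS group. The mean of the DSS group was 0.663 times that of the model group and 0.557 times that of the control group. No test was run on these sums. In RNA from whole tissue, fewer cells in the cycle and less of these transcripts per cell cannot be told apart.

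One gene weighed heavily in the sum. Ccnd1, which encodes cyclin D1, gave between 19.2% and 38.1% of the summed counts of a rat. Without it, the sum of the other 37 genes was 148, 112 and 131 CPM in the control rats, 106, 131 and 112 in the model rats, and 79.7, 86.7 and 97.2 in the DSS rats. The DSS rats were again the lowest, and the control and model groups again overlapped. The mean of the DSS group was then 0.754 times that of the model group and 0.674 times that of the control group.

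Split by role, the sums ordered the groups in different ways. The 6 MCM genes together gave 46.8, 30.2 and 37.8 CPM in the control rats, 20.1, 27.6 and 22.8 in the model rats, and 18.9, 21.6 and 28.0 in the DSS rats. Both groups that drank fructose lay below every control rat and overlapped each other. The 24 genes of mitosis, the spindle checkpoint and cytokinesis together gave 32.6, 18.7 and 24.2 CPM in the control rats, 36.7, 50.2 and 38.6 in the model rats, and 19.4, 22.0 and 23.5 in the DSS rats. Here every model rat lay above all control and all DSS rats, and the control and DSS groups overlapped. The sum over all genes hides this split, since the model mean was 0.615 times the control mean for the MCM genes and 1.66 times it for the mitotic genes. The log2 ratio of the summed CPM between the model and control groups was -0.252, and with each gene weighted equally, as the mean of log2(CPM + 0.5), it was 0.064.

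**Figure D1:**
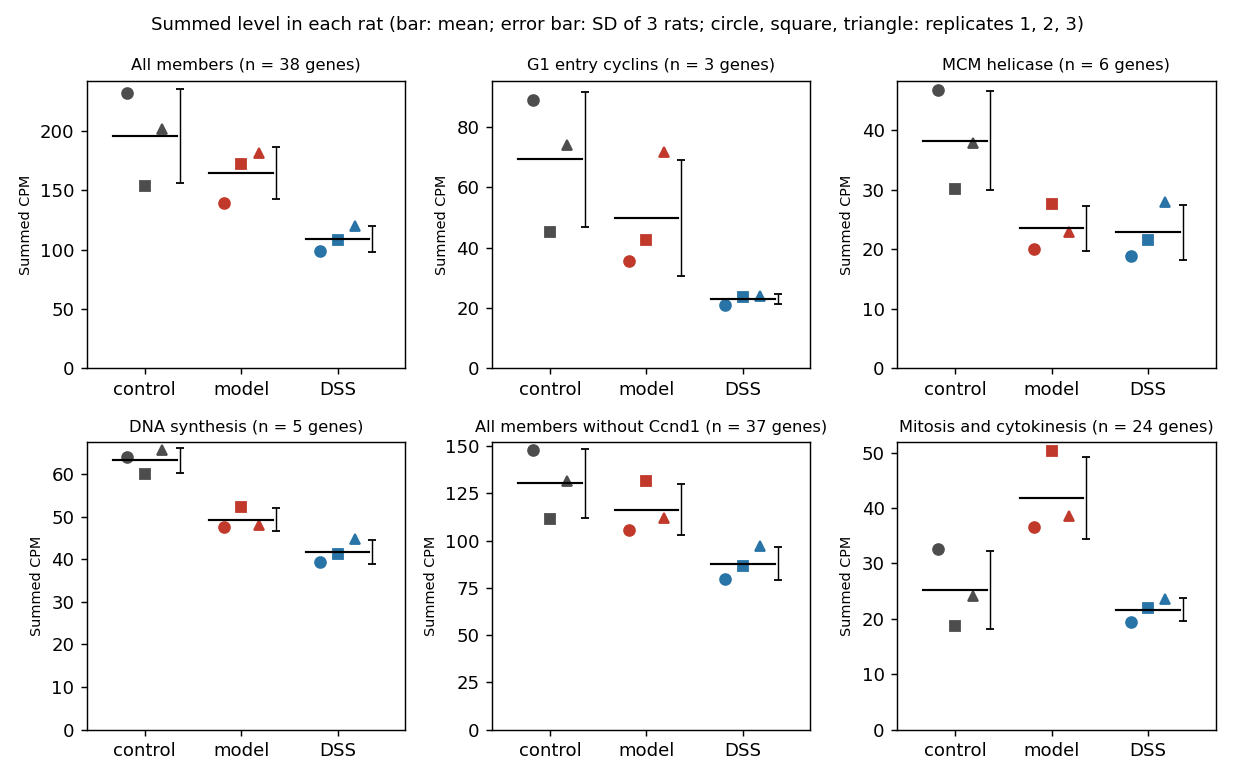
Summed CPM of the cell cycle genes in each of the 9 rats (vertical axes, linear and starting at 0) by group (horizontal axes), for all members, for 4 groups of members by role and for all members without Ccnd1. Points are rats, bars are means and error bars are the SD of 3 rats. The 3 DSS rats lie lowest for all members (98.7 to 120.4 CPM), the MCM sum is lower in both fructose groups, and the mitotic sum is highest in the model group (36.7 to 50.2 CPM).

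Single genes were tested with the quasi-likelihood test of edgeR on the 6 libraries of each pair of groups. To be called, a gene had to differ by 0.5 or more on the log2 scale with a false discovery rate (FDR, Benjamini-Hochberg over all genes tested) of 0.01 or less. In the model group against the control group, 33 members passed the filter on low counts and 0 were called by edgeR, where 0.0801% of all tested genes were called. DESeq2 called 2 members there, Mcm6 and Tk1, beside 256 of all 12486 genes tested. At an unadjusted p under 0.05 in edgeR, 6 members were lower (Ccne1, Mcm2, Mcm3, Mcm5, Mcm6 and Tk1), beside 6.36% of all genes, and 5 were higher (Aurka, Cdc20, Cenpf, Top2a and Tpx2), beside 6.84% of all genes. The groups did not overlap in CPM for 6 lower members, the same genes as named, beside 9.94% of all genes. They did not overlap for 5 higher members (Aurka, Birc5, Cdc20, Cenpf and Tpx2), beside 11.1% of all genes. The lower members were all of G1 entry, DNA replication or thymidine salvage, and the higher members all of mitosis.

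In the DSS group against the model group, 29 members were tested and 0 were called by edgeR, beside 0.136% of all genes. DESeq2 called 2, Ccnd1 and Cdc20, beside 147 of all 12502 genes tested. At an unadjusted p under 0.05, 10 members were lower (Aurka, Ccnb1, Ccnd1, Cdc20, Cdk1, Cenpf, Kif20a, Mki67, Plk1 and Top2a), beside 4.49% of all genes. On the other side 0 members were higher, beside 3.54%. The groups did not overlap for 11 lower members, the same 10 and Birc5, beside 7.86% of all genes, and for 0 higher members, beside 6.17%. Apart from Ccnd1, the tested members that were lower are genes of mitosis. Mcm5 and Rrm2, which serve the copying of DNA, and Ccna2 did not pass the filter between these groups. For these genes too all DSS rats lay below all model rats in CPM, while the other members that did not pass overlapped. Mcm5, Rrm2 and Ccna2 were not tested here and had few counts in the DSS rats, so their order rests on few reads. As a sum, the 6 MCM genes overlapped between these groups (DSS mean 0.971 times the model mean). The sum of the 5 genes of DNA synthesis did not overlap (0.847 times). This comparison shares its model rats with the one before, so the 2 are not independent.

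In the DSS group against the control group, 29 members were tested and 1 was called, Mcm5, which fell, beside 1.48% of all genes called in either direction. Of the 29, at an unadjusted p under 0.05, 12 members were lower (Ccnd1, Ccne1, Ccne2, Cdk1, Kif20a, Mcm2, Mcm3, Mcm5, Mcm6, Pcna, Tk1 and Tyms), beside 12.5% of all genes, and 0 were higher, beside 11.9%. The groups did not overlap for 11 lower members, beside 15.2% of all genes, and for 1 higher member, Foxm1, beside 14.9%. At an FDR of at most 0.05, 6 members passed (Ccnd1, Mcm2, Mcm3, Mcm5, Mcm6 and Tk1). The share of all genes at that FDR was not computed. DESeq2 called the same 6 at 0.01, beside 769 of all 12633 genes tested. In the other comparisons 0 members reached an FDR of 0.05 in edgeR with the filter on low counts. Without that filter Tk1 (0.021) and Mcm6 (0.0322) did in the model against the control group, and Cenpf (0.0439) did in the DSS against the model group.

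The median log2 fold change over the members tested was 0.18 in the model against the control group, -0.56 in the DSS against the model group and -0.53 in the DSS against the control group, with medians of all genes of -0.001, 0.001 and -0.008. Members that are low in 2 groups can pass the filter only through the other group, so the counts and medians of the members that passed describe those genes alone. Without the filter, all 38 members could be fitted. Their medians were then 0.25, -0.77 and -0.74, with 13, 33 and 32 of the 38 below 0.

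**Figure D2:**
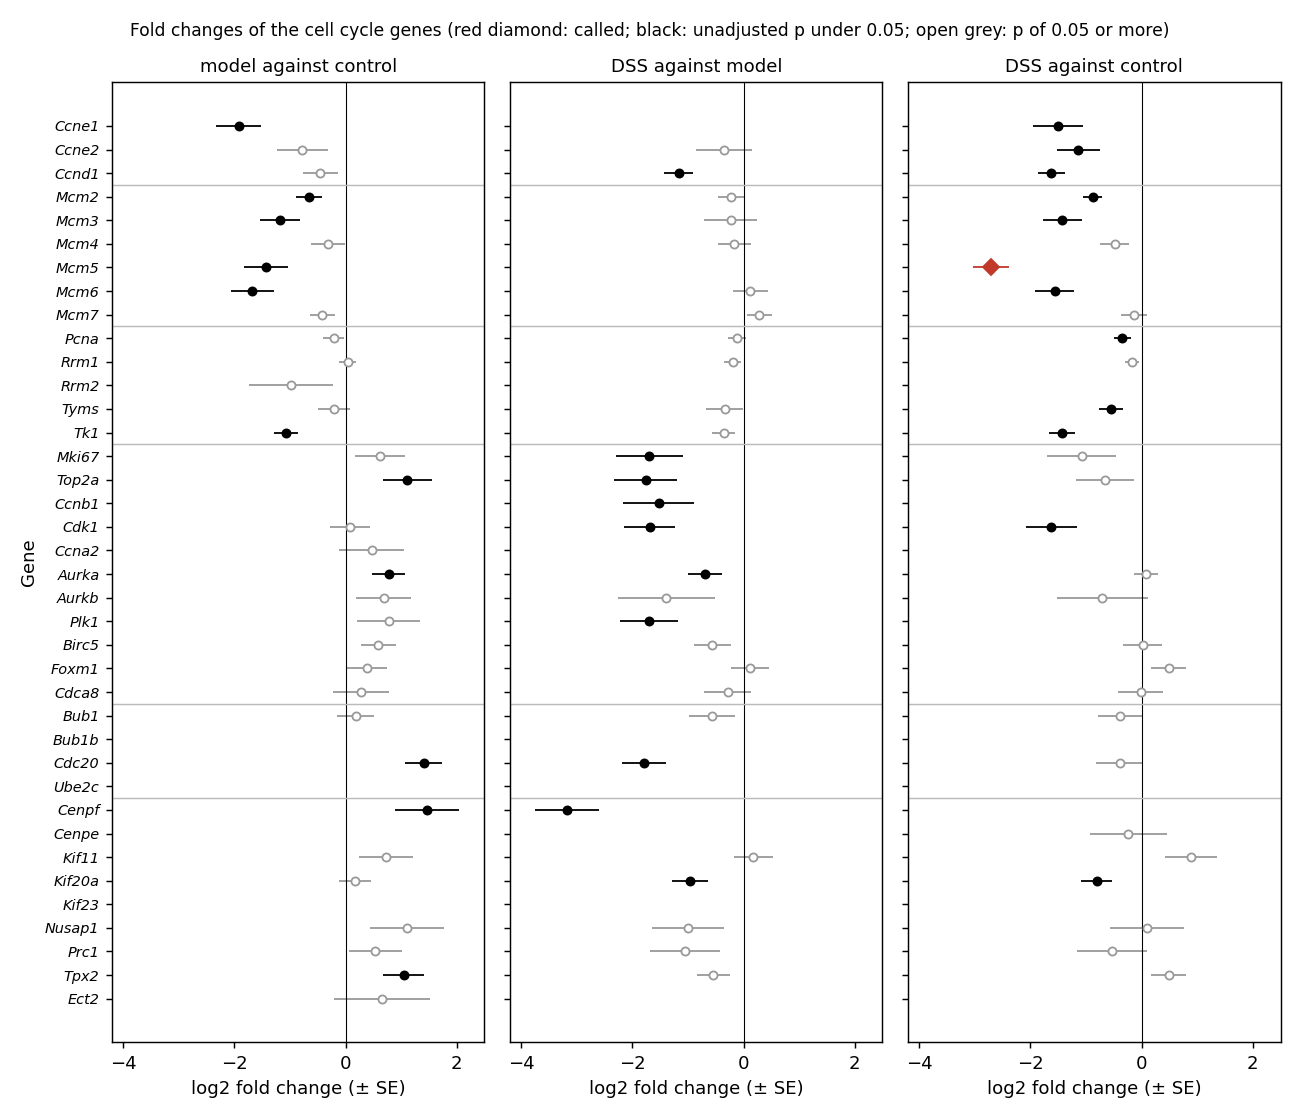
Log2 fold change with its SE (horizontal axes) of each member (vertical axis, ordered by role) in the 3 comparisons, from edgeR on 6 libraries each. A red diamond marks a called gene, a black point an unadjusted p under 0.05 and an open point any other tested member, and no point is drawn for members not tested. The MCM genes, Ccne1 and Tk1 lie left of 0 in both comparisons with the control group, and 25 of 29 members lie left of 0 in the DSS group against the model group.

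The cyclins of G1 were highest in the control group. Ccnd1 encodes cyclin D1, which pairs with CDK4 or CDK6 when growth signals call a cell into the cycle. It had 2106, 708 and 1052 counts in the control rats, 792, 642 and 1117 in the model rats, and 350, 401 and 448 in the DSS rats, or 65.6 ± 21.4, 48.1 ± 18.5 and 21.3 ± 2.08 CPM. Each DSS rat was below each of the 6 other rats, and model rat 3 lay within the range of the control rats. Its log2 fold change was -1.63 ± 0.242 (SE) in the DSS against the control group, and its FDR of 0.0115 in edgeR just missed the threshold. Against the model group it was -1.17 ± 0.258 (edgeR FDR 0.162). DESeq2 called both, at an FDR of 8.24e-10 and 0.00294. Ccnd1 differed by -0.45 ± 0.318 on the log2 scale between the model and control groups (edgeR FDR 0.588).

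Ccne1 and Ccne2 encode the E-type cyclins, partners of CDK2 at the border of G1 and S phase. Ccne1 had 33, 18 and 14 counts in the control rats, 7, 5 and 4 in the model rats, and 11, 7 and 4 in the DSS rats. Every rat on fructose was below every control rat on the CPM scale, at 0.289 ± 0.0385 CPM in the model and 0.394 ± 0.196 in the DSS group against 1.11 ± 0.197 in the control group. Against the control group Ccne1 had a log2 fold change of -1.92 ± 0.408 in the model (edgeR FDR 0.0994) and -1.50 ± 0.446 in the DSS group (edgeR FDR 0.076). Ccne2 had 81, 28 and 44 counts in the control rats, 29, 13 and 41 in the model rats, and 26, 28 and 13 in the DSS rats. The DSS rats lay below the control rats in CPM, and model rat 3 lay among them. Its log2 fold change in the DSS against the control group was -1.14 ± 0.381 (edgeR FDR 0.105).

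The MCM genes encode the subunits of the ring helicase that is loaded on origins in G1 and unwinds DNA in S phase. Mcm5 was the only member called by edgeR. It had 77, 36 and 43 counts in the control rats, 14, 24 and 15 in the model rats, and 6, 9 and 8 in the DSS rats, or 2.7 ± 0.489, 1.02 ± 0.480 and 0.409 ± 0.0799 CPM. The 3 groups did not overlap, with the control rats highest and the DSS rats lowest. In the DSS against the control group Mcm5 fell by 2.71 on the log2 scale (SE 0.331, edgeR FDR 0.00262). In the model against the control group its log2 fold change was -1.43 ± 0.393 (edgeR FDR 0.166), and it did not pass the filter between the DSS and model groups. The call rests on few counts. It was lost, with the FDR between 0.0106 and 0.0156, when control rat 1, control rat 3, DSS rat 1 or DSS rat 3 was left out, and the log2 fold change lay between -2.86 and -2.57 under the alternatives that tested the gene.

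For Mcm6, Mcm3 and Mcm2 both fructose groups lay below every control rat. Mcm6 had 236, 61 and 85 counts in the control rats, 42, 40 and 25 in the model rats, and 32, 40 and 48 in the DSS rats. Control rat 1 was far above the other control rats, and the highest rat on fructose, model rat 2 at 2.57 CPM, stayed below the lowest control rat, control rat 2 at 3.64 CPM. Set against the control group, Mcm6 had a log2 fold change of -1.68 ± 0.384 in the model (edgeR FDR 0.116, DESeq2 FDR 0.00365) and -1.57 ± 0.347 in the DSS group (edgeR FDR 0.0316, DESeq2 FDR 8.24e-04).

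Mcm3 had 86, 44 and 39 counts in the control rats, 25, 30 and 14 in the model rats, and 10, 24 and 27 in the DSS rats. Mcm2 had 265, 138 and 142 counts in the control rats, 100, 112 and 108 in the model rats, and 83, 99 and 108 in the DSS rats. For both genes the model and DSS rats overlapped. Mcm3 differed from the control group by -1.18 ± 0.363 on the log2 scale in the model (edgeR FDR 0.217) and by -1.42 ± 0.359 in the DSS group (edgeR FDR 0.0458). For Mcm2 it was -0.65 ± 0.233 (edgeR FDR 0.286) and -0.88 ± 0.170 (edgeR FDR 0.0186).

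Mcm4 and Mcm7, which belong to the same ring, did not separate the groups. Mcm4 had 241, 104 and 85 counts in the control rats, 90, 120 and 97 in the model rats, and 86, 77 and 129 in the DSS rats. Mcm7 had 263, 122 and 173 counts in the control rats, 198, 103 and 111 in the model rats, and 131, 151 and 221 in the DSS rats. Their log2 fold changes lay between -0.48 and 0.29 over the 3 comparisons, and the groups overlapped in each.

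The genes that serve DNA synthesis were lower in the rats on fructose as a sum, in which Tk1 weighed heavily. Among them Tk1 alone separated both fructose groups from the control rats. The 5 genes together gave 64.0, 60.03 and 65.5 CPM in the control rats, 47.6, 52.4 and 48.0 in the model rats, and 39.3, 41.1 and 44.9 in the DSS rats, and the 3 groups did not overlap. The mean of this sum was 63.2 CPM in the control and 49.3 CPM in the model group. Tk1 alone had 18.8 and 8.95 CPM, which is most of that difference. For each of the other genes the control and model groups overlapped, and the sum without Tk1 was not taken. Tk1 encodes thymidine kinase, the salvage enzyme for thymidine that dividing cells use. It had 338, 343 and 336 counts in the control rats, 210, 149 and 134 in the model rats, and 105, 116 and 171 in the DSS rats, or 18.8 ± 4.65, 8.95 ± 0.659 and 6.94 ± 1.67 CPM. Every rat on fructose lay below every control rat. The model and DSS groups overlapped, since DSS rat 3 was above model rat 3. Against the control group Tk1 had a log2 fold change of -1.07 ± 0.214 in the model (edgeR FDR 0.0844, DESeq2 FDR 0.00175) and -1.43 ± 0.236 in the DSS group (edgeR FDR 0.0112, DESeq2 FDR 1.84e-06).

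Pcna, the sliding clamp of the DNA polymerases, and Rrm1, the large subunit of ribonucleotide reductase, differed little between the groups. Pcna had 617, 291 and 308 counts in the control rats, 490, 259 and 264 in the model rats, and 295, 288 and 346 in the DSS rats. The groups overlapped in every comparison, and the largest difference was a log2 fold change of -0.35 ± 0.150 in the DSS against the control group (edgeR FDR 0.196). Rrm1 had 407, 239 and 220 counts in the control rats, 317, 260 and 263 in the model rats, and 244, 239 and 275 in the DSS rats. In CPM the DSS rats were below the control rats, by a log2 fold change of only -0.17 ± 0.124 (edgeR FDR 0.443).

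Tyms encodes thymidylate synthase, the enzyme that makes thymidylate anew. It had 174, 128 and 92 counts in the control rats, 84, 124 and 108 in the model rats, and 77, 116 and 73 in the DSS rats, and the groups overlapped. Its log2 fold change was -0.55 ± 0.220 in the DSS against the control group (edgeR FDR 0.163). Rrm2, the small subunit of ribonucleotide reductase, which is made mainly in S phase, was near 0 in the DSS group. It had 2, 3 and 3 counts there, beside 61, 4 and 28 in the control and 11, 22 and 8 in the model rats. Control rat 2 was thus close to the DSS rats, and Rrm2 did not pass the filter in either comparison of the DSS group.

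**Figure D3:**
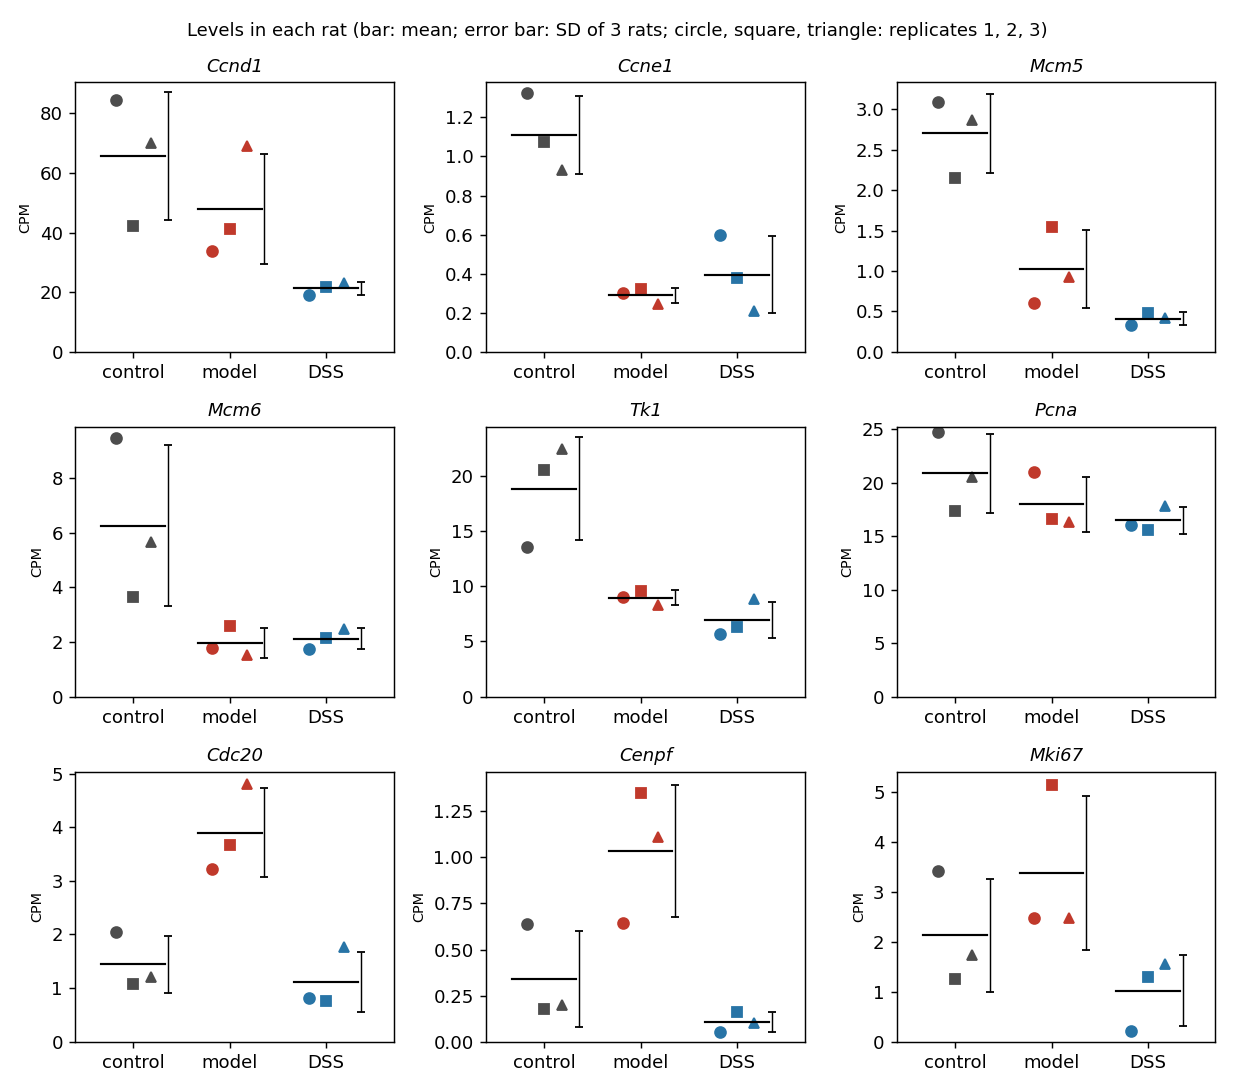
CPM (vertical axes, linear and starting at 0) of 9 members in each rat by group (horizontal axes); these genes were picked for display after their values were seen. Points are rats, bars are means and error bars are the SD of 3 rats. Ccne1, Mcm5, Mcm6 and Tk1 are lower in all rats on fructose, Ccnd1 is lower in the 3 DSS rats, Pcna overlaps, and Cdc20 and Cenpf are highest in the 3 model rats.

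Among the regulators of mitosis the model rats were most often the highest. Mki67, a coat protein of mitotic chromosomes and the common marker of cells in the cycle, had 85, 21 and 26 counts in the control rats, 58, 80 and 40 in the model rats, and 4, 24 and 30 in the DSS rats. Top2a, the topoisomerase that untangles sister chromatids, had 43, 13 and 18 counts in the control rats, 36, 64 and 42 in the model rats, and 6, 12 and 27 in the DSS rats. For both genes all DSS rats were below all model rats, and the control group overlapped both others. In the DSS against the model group the difference was -1.69 ± 0.606 on the log2 scale for Mki67 (edgeR FDR 0.523) and -1.76 ± 0.561 for Top2a (edgeR FDR 0.432). In the model against the control group Top2a had a log2 fold change of 1.11 ± 0.447 (edgeR FDR 0.333), and Mki67 one of 0.62 ± 0.450 (edgeR FDR 0.595).

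Cdk1, the kinase that starts mitosis, had another pattern than these genes. It had 24, 12 and 12 counts in the control rats, 19, 16 and 13 in the model rats, and 5, 3 and 7 in the DSS rats. The control and model rats overlapped, at 0.826 ± 0.125 and 0.882 ± 0.128 CPM, and all DSS rats were lower, at 0.265 ± 0.1001 CPM. In the DSS group Cdk1 differed on the log2 scale by -1.69 ± 0.452 from the model (edgeR FDR 0.303) and by -1.63 ± 0.458 from the control group (edgeR FDR 0.0651). Ccnb1 encodes cyclin B1, the partner of this kinase, and had 9, 6 and 6 counts in the control rats, 16, 27 and 12 in the model rats, and 2, 6 and 12 in the DSS rats. All model rats were above all other rats in CPM, and the gene passed the filter only between the DSS and model groups, with a log2 fold change of -1.53 ± 0.642 (edgeR FDR 0.609).

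Plk1 and Aurka encode kinases that ripen the centrosomes and build the spindle. Plk1 had 18, 4 and 3 counts in the control rats, 21, 10 and 9 in the model rats, and 2, 6 and 4 in the DSS rats. Aurka had 103, 56 and 69 counts in the control rats, 228, 92 and 79 in the model rats, and 84, 87 and 67 in the DSS rats. For Aurka every model rat was above all 6 other rats in CPM, with model rat 1 far above the rest at 9.77 CPM and model rat 3 close to the others at 4.88 CPM. Aurka had log2 fold changes of 0.78 ± 0.301 in the model against the control group (edgeR FDR 0.318) and -0.69 ± 0.299 in the DSS against the model group (edgeR FDR 0.62). For Plk1 the DSS rats were below the model rats, with a log2 fold change of -1.70 ± 0.524 (edgeR FDR 0.413).

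Cdc20, the activator of the anaphase-promoting complex (APC), which lets sister chromatids part, was highest in the model rats. It had 51, 18 and 18 counts in the control rats, 75, 57 and 78 in the model rats, and 15, 14 and 34 in the DSS rats, or 1.44 ± 0.527, 3.90 ± 0.826 and 1.11 ± 0.562 CPM. The lowest model rat, at 3.21 CPM, was above the highest of the other rats, control rat 1 at 2.04 CPM. Cdc20 had a log2 fold change of 1.41 ± 0.338 in the model against the control group (edgeR FDR 0.121) and -1.79 ± 0.389 in the DSS against the model group (edgeR FDR 0.151). DESeq2 gave FDRs of 0.016 and 0.00368 for these, so that it called the second. Between the DSS and control groups Cdc20 differed by -0.40 ± 0.428 (edgeR FDR 0.622).

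Of the genes of the spindle and of cytokinesis, Cenpf had the largest difference between the DSS and model groups. It encodes a large kinetochore protein and had 16, 3 and 3 counts in the control rats, 15, 21 and 18 in the model rats, and 1, 3 and 2 in the DSS rats. All DSS rats lay below all 6 other rats in CPM, but DSS rat 2 and control rats 2 and 3 had 3 counts each. Their order thus comes from the scaling, and the gene did not pass the filter between the DSS and control groups. Control rat 1, at 0.641 CPM, almost reached model rat 1, at 0.642 CPM. The log2 fold change was -3.17 ± 0.576 in the DSS against the model group (edgeR FDR 0.0776, DESeq2 FDR 0.0145) and 1.47 ± 0.575 in the model against the control group (edgeR FDR 0.323). Without control rat 1 the second value was 2.39 (edgeR FDR 0.323).

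Kif20a, a motor of cytokinesis, had 58, 39 and 32 counts in the control rats, 47, 37 and 53 in the model rats, and 21, 21 and 31 in the DSS rats. Its pattern was that of Cdk1, with the control and model rats overlapping and all DSS rats below them. In log2 terms the DSS group differed by -0.97 ± 0.326 against the model (edgeR FDR 0.469) and by -0.81 ± 0.277 against the control group (edgeR FDR 0.112). Tpx2, which builds spindle microtubules and activates the Aurora A kinase, had 54, 30 and 15 counts in the control rats, 55, 59 and 70 in the model rats, and 45, 47 and 41 in the DSS rats. The model rats were above the control rats, with a log2 fold change of 1.05 ± 0.371 (edgeR FDR 0.282), and the DSS group overlapped both.

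The other 14 members besides Rrm2 had few counts, and none had an unadjusted p under 0.05 where it was tested. Bub1b, Kif23 and Ube2c passed the filter in no comparison, and Ccna2, Ect2 and Cenpe in only 1 each. Of all 38 members, 6 had a mean of under 10 counts over the 9 libraries, 22 had a mean of 10 to 50 and 10 had at least 50. Birc5, a subunit of the chromosomal passenger complex, had 34, 17 and 25 counts in the control rats, 40, 34 and 36 in the model rats, and 27, 17 and 33 in the DSS rats. The model rats were above all other rats in CPM, by a narrow margin over DSS rat 3 (1.713 against 1.706 CPM). Its partners Aurkb (1 to 27 counts) and Cdca8 (11 to 42 counts) overlapped between the groups, as did the checkpoint genes Bub1 (10 to 37 counts) and Bub1b (1 to 12 counts). Ccna2, the A-type cyclin of S phase and mitosis, had 3, 5 and 5 counts in the DSS rats, beside 31, 6 and 5 in the control and 14, 20 and 16 in the model rats.

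Of the 29 members tested in the DSS against the control group, 6 had a fold change above 0, the largest being those of Kif11, Tpx2 and Foxm1. Kif11, the motor that pushes the spindle poles apart, had 44, 7 and 19 counts in the control rats, 37, 38 and 30 in the model rats, and 56, 36 and 31 in the DSS rats. Its log2 fold change was 0.89 ± 0.467 in the DSS against the control group (edgeR FDR 0.277). Foxm1, a transcription factor for mitotic genes, had 27, 18 and 11 counts in the control rats, 34, 14 and 23 in the model rats, and 22, 26 and 29 in the DSS rats. All DSS rats were above all control rats in CPM, with a log2 fold change of 0.49 ± 0.319 (edgeR FDR 0.387). Neither was called.

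The remaining members were Cenpe (3 to 14 counts), Nusap1 (2 to 26 counts), Prc1 (2 to 27 counts), Ect2 (0 to 25 counts), Kif23 (0 to 11 counts) and Ube2c (0 to 17 counts), which serve the kinetochore, the central spindle, cytokinesis and the APC. Kif23 had 0 counts in DSS rats 1 and 2, Ube2c in DSS rat 3, and Ect2 in control rat 2 and DSS rat 2. A count of 0 allows up to 3 counts, or 0.155 to 0.179 CPM in these libraries, so absence cannot be stated at this depth.

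The rats of 1 group differed among themselves in many members at once. Control rat 1 had the highest CPM of its group in 29 of the 38 members, model rat 2 in 26, and DSS rat 3 in 20. For the 24 mitotic genes these numbers were 18, 16 and 11. The DSS rats varied least in the mitotic sum, with an SD of 2.10 CPM, beside 7.02 in the control and 7.34 in the model group.

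**Figure D4:**
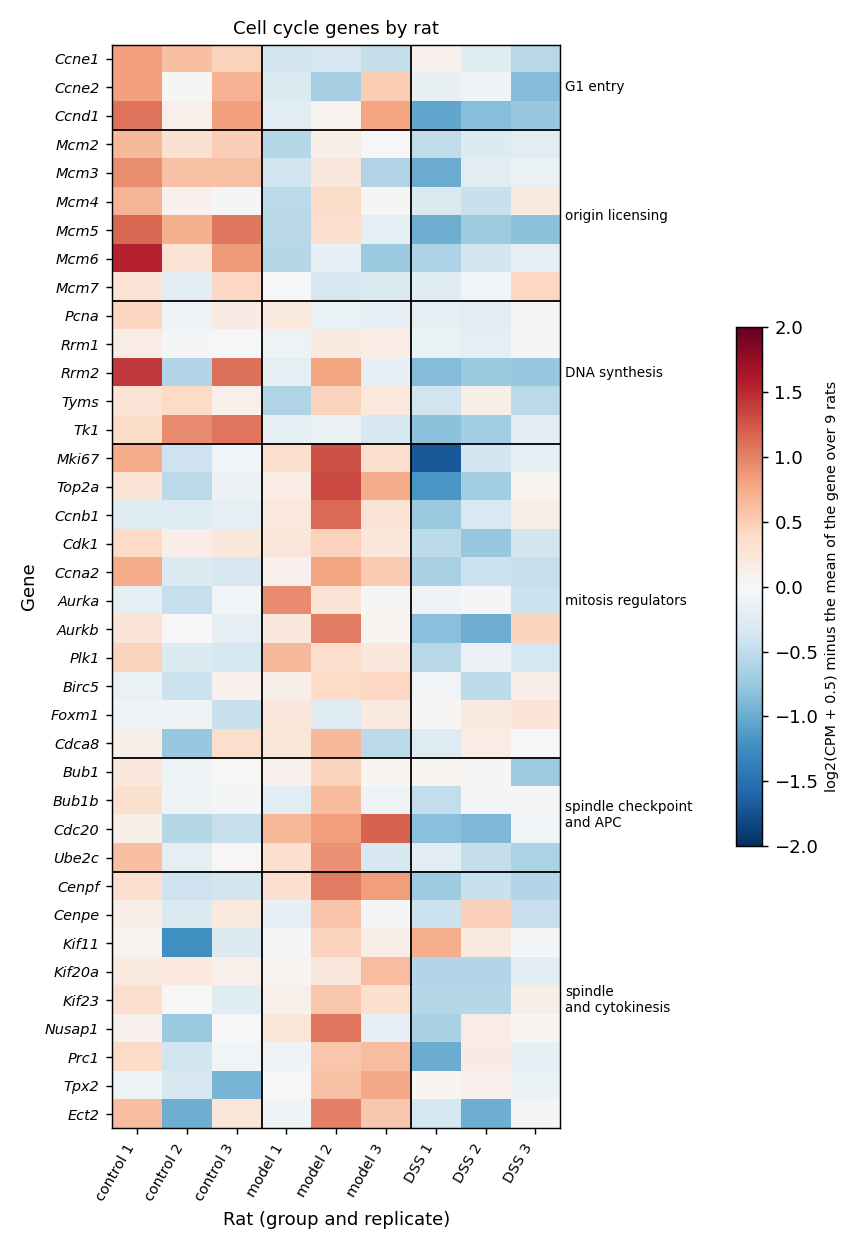
Level of each of the 38 members (vertical axis, by role) in each rat (horizontal axis, by group), as log2(CPM + 0.5) minus the mean of that gene over the 9 rats. Red is above and blue below the mean of the gene. Ccne1, Mcm2, Mcm3, Mcm5, Mcm6 and Tk1 are red in the 3 control rats, the mitotic genes are mostly red in model rat 2, and the DSS rats are mostly blue.

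In all, 5 further lists of the pathway, with 149 genes and 148 of them in the table, were set beside the members. In the model against the control group 107 of them were tested and 0 were called by edgeR, with 6 lower and 10 higher at an unadjusted p under 0.05. In the DSS against the model group 109 were tested and 0 were called, with 10 lower and 1 higher. In the DSS against the control group 104 were tested and 2 were called, 1 lower and 1 higher, with 13 lower and 15 higher at an unadjusted p under 0.05. The shares of all genes beside these counts are those given for the members. DESeq2 called 4 of these genes in the model against the control group (Ccng2, Ckap2, Gadd45g and Wee1), 2 in the DSS against the model group (Ckap2 and Rpa1) and 7 in the DSS against the control group (Ccng2, Gmnn, Rfc1, Rfc3, Spc24, Tfdp1 and Wee1).

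Wee1 fell in the DSS against the control group. It encodes the kinase that holds CDK1 inactive before mitosis and is also an output gene of the circadian clock. It had 319, 149 and 199 counts in the control rats, 69, 25 and 14 in the model rats, and 32, 47 and 49 in the DSS rats. All rats on fructose were below all control rats. Set against the control group, Wee1 had a log2 fold change of -2.36 ± 0.229 in the DSS (edgeR FDR 9.69e-04) and -2.64 ± 0.403 in the model group (edgeR FDR 0.033). Among the 20 cyclins, CDKs and CDK inhibitors of the list tested in the DSS against the control group, it was the only gene called. Ccnd2, another D-type cyclin, was at 4.47 ± 1.48 CPM in the control and 1.998 ± 0.417 CPM in the DSS group (log2 fold change -1.18, edgeR FDR 0.043). Cdkn1b, the inhibitor p27, was at 20.6 ± 1.02 and 27.1 ± 1.84 CPM (log2 fold change 0.39, edgeR FDR 0.0688).

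Ccng2 rose in the DSS against the control group. It encodes cyclin G2, an atypical cyclin that is made in cells that rest or leave the cycle. It had 285, 187 and 126 counts in the control rats, 526, 404 and 360 in the model rats, and 598, 354 and 495 in the DSS rats. All rats on fructose were above all control rats in CPM. Set against the control group, Ccng2 had a log2 fold change of 1.31 ± 0.207 in the DSS (edgeR FDR 0.00965) and 1.19 ± 0.170 in the model group (edgeR FDR 0.0279). Of the other 13 genes of the growth arrest list, Gadd45g, Btg1 and Sesn2 had log2 fold changes of 1.59, 0.92 and 0.70 in the model against the control group (edgeR FDR 0.1003, 0.142 and 0.133). Sesn2 had one of 0.55 in the DSS against the control group (edgeR FDR 0.0561).

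On the list of origin licensing and DNA synthesis edgeR called 0 of the 31, 31 and 32 genes tested in the 3 comparisons, with 5, 2 and 8 at an unadjusted p under 0.05. Gmnn and Cdt1, which encode geminin and the licensing factor that it blocks, were both lower in the rats on fructose. Gmnn was at 2.06 ± 0.551 CPM in the control, 0.640 ± 0.0880 in the model and 0.673 ± 0.145 in the DSS group (edgeR FDR 0.103 for the model and 0.0283 for the DSS group against control). Cdt1 was at 2.07 ± 0.614, 1.003 ± 0.174 and 0.680 ± 0.253 CPM (edgeR FDR 0.256 and 0.0367). The DNA polymerase subunit Pold1 had a log2 fold change of -0.80 in the DSS against the control group (edgeR FDR 0.0561). The clamp loader subunits Rfc1 and Rfc3 were instead higher there, at 0.51 and 0.86 (edgeR FDR 0.0213 and 0.0296). Rpa1, which coats single-stranded DNA, was at 40.1 ± 0.862 CPM in the control, 51.2 ± 3.10 in the model and 30.7 ± 3.19 in the DSS group, with a log2 fold change of -0.73 between the DSS and model groups (edgeR FDR 0.0772).

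The other 2 lists held 0 genes called by edgeR. Among the Rb, E2F and DREAM factors, Tfdp1, a partner of the E2F factors, and Rb1, which restrains them, had log2 fold changes of -0.54 and -0.54 in the DSS against the control group (edgeR FDR 0.0256 and 0.0812). At an unadjusted p under 0.05 this list had 2, 3 and 7 genes in the 3 comparisons, and the next list had 2, 5 and 4. Among the 51 genes of the kinetochore, spindle, condensin and cytokinesis, Ckap2 followed the pattern of Cdc20. It had 8, 6 and 1 counts in the control rats, 22, 44 and 23 in the model rats, and 5, 4 and 3 in the DSS rats, with log2 fold changes of 2.69 in the model against the control group (edgeR FDR 0.116) and -2.95 in the DSS against the model group (edgeR FDR 0.0941). Cdca3, for which control rat 1 overlapped the model rats, had a log2 fold change of -2.83 in the DSS against the model group (edgeR FDR 0.18). Spc24, a kinetochore subunit, had 76, 86 and 27 counts in the control rats and 5, 18 and 21 in the DSS rats, with a log2 fold change of -2.09 (edgeR FDR 0.0487).

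Cells other than hepatocytes also divide in the liver, so the markers of 8 cell types were summed in each rat. All 10 hepatocyte markers were detected, and their sum was 145500 to 184100 CPM in the control, 183800 to 232200 in the model and 179900 to 224900 in the DSS group. Of 12 lymphocyte markers 11 were in the table, 9 of them at a mean under 1 CPM. Their sum was 13.1 to 24.7 CPM in the control, 10.7 to 24.3 in the model and 13.4 to 17.5 in the DSS group. Most of it was Ptprc, with 16.9 CPM in control rat 1 and 19.4 CPM in model rat 2. The 11 markers of Kupffer cells and macrophages summed to 474 to 964, 360 to 749.8 and 475 to 669 CPM, and 7 of 8 endothelial markers to 164 to 273, 111 to 315 and 170 to 229.7 CPM. The markers of neutrophils and bone marrow myeloid cells, 6 of 8 in the table and 5 of them at a mean under 1 CPM, summed to 1.86 to 3.17, 2.87 to 5.21 and 2.99 to 4.65 CPM. For the 4 lists of lymphocytes, macrophages, endothelial cells and neutrophils, control rat 1 and model rat 2 were the highest of their groups. They also had the highest mitotic sums of their groups. For the hepatocyte list both were the lowest of their groups, at 145500 and 183800 CPM. In the DSS group the rat with the highest mitotic sum was not the highest for all of the 4 lists. DSS rat 3 had the highest mitotic sum there. It was the highest of its group for the macrophage and neutrophil lists but the lowest for lymphocytes (13.4 CPM) and endothelial cells (170 CPM). Without control rat 1 and model rat 2 the mitotic sums were 18.7 and 24.2 CPM in the control and 36.7 and 38.6 CPM in the model group. These rats were set aside after their values were seen, so nothing is concluded from this on the content of cells. On the lymphocyte list, Klrb1 of natural killer cells was at 0 in 8 of 9 rats, while Nkg7 was detected in every rat (0.557 to 1.416 CPM). The erythroid list had 8 of 10 markers (361 to 1190 CPM over all rats), and that of stellate cells and fibroblasts 8 of 8 (212 to 374 CPM). The bile duct list had 7 of 7 (16.5 to 35.2 CPM). On none of these lists were control rat 1 and model rat 2 both on top of their groups. Over the 8 lists 50, 52 and 53 genes were tested in the 3 comparisons. EdgeR called 0 in each, with 7, 2 and 9 at an unadjusted p under 0.05 in either direction. The shares of all genes beside these counts are those given for the members, lower and higher together. DESeq2 called 2 (Ass1 and Cps1), 0 and 2 (Apoa1 and Ass1), all of them on the hepatocyte list. The part of these cells in the results on the cell cycle genes was not tested.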

How the data were processed

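Liver RNA of 9 rats (3 control, 3 model, 3 DSS) was sequenced. The authors aligned the reads with HISAT2, assigned them to exons, both strands alike, with HTSeq 0.6.1, and deposited raw counts per gene, without normalization. Genes that overlap on opposite strands can therefore share reads. The submitters' processing notes name the rat build Rnor_6.0. A table of newly assembled transcripts was not used, since its unit is not given in the sources used here. No rat sequence or annotation was used here.

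Members were matched by symbol. Each pair of groups was fitted on its 6 libraries with edgeR 4.0.16 (R 4.3.3), with filterByExpr, TMM normalization, glmQLFit (robust) and the two-sided glmQLFTest, with the thresholds of the study. CPM were scaled by TMM over all 9 libraries. SE is the absolute log2 fold change divided by the square root of the F statistic. Sums were not tested. Intervals are exact Poisson. Total counts ranged from 14345819 to 26837227, and most members had few counts, so both counting error and the spread between rats limit them. Groups came from the labels. Nothing shows that same-numbered rats were paired.

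Values in every rat are given for members with a mean of at least 50 counts, an unadjusted p under 0.05 in any comparison, or a call. Further genes of the pathway are named if called or at an unadjusted p under 0.01. One gene that met this rule is not reported here. The members and lists were chosen with earlier results of these data known. Alternatives were other scalings, other filters, DESeq2 1.42.0, 1 fit of all libraries, a replicate block, other thresholds and each rat left out. The scripts were tested on simulated data. The promoter motifs considered at planning were not searched, since the promoter table at hand is of the mouse.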

Additional observations from a re-analysis of the deposited data

How the results depend on the processing

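The number of members called moved with the tool and the threshold. In the model against the control group it was 0 in all settings but DESeq2, which gave 2 (Mcm6 and Tk1), and in the DSS against the model group it was 0 in all but DESeq2, which gave 2 (Ccnd1 and Cdc20). Leaving out each rat in turn gave 0 to 0 in both. In the DSS against the control group, where edgeR called 1, the number was 3 with library size alone, 4 with no filter on low counts, 0 with at least 10 counts in every library (Mcm5 was then not tested), 6 with DESeq2, 2 with all 9 libraries in one fit and 6 at an FDR of 0.05. It was 0 to 3 over the rats left out. Without control rat 3, DSS rat 1 or DSS rat 3 it was 0, without control rat 1 it was 1 (Tk1 in place of Mcm5), without DSS rat 2 it was 1 (Mcm5), and without control rat 2 it was 3 (Ccnd1, Mcm5 and Rrm2). Over all genes edgeR called 10, 17 and 187 genes in the 3 comparisons and DESeq2 called 256, 147 and 769; the cause was not tested. With a replicate block the members called were 0, 0 and 1 (Tk1 in place of Mcm5), and all genes called were 0, 7 and 104. Same-numbered rats did not deviate together (correlations from -0.232 to -0.0206). This gives no sign of a pairing but cannot exclude one. The log2 ratio of summed CPM, -0.252 in the model against the control group, reversed to 0.064 as the mean of log2(CPM + 0.5). It moved from -0.593 to -0.407 without Ccnd1 in the DSS against the model group, and from -0.844 to -0.569 without Ccnd1 and to -0.478 as the mean of log2(CPM + 0.5) in the DSS against the control group. Over the 33 pairs of a member and a comparison with an unadjusted p under 0.05, 418 refits were made, of which 395 stayed on their side of the threshold, 18 newly passed it, 5 (all of Mcm5) no longer passed and 0 reversed. Other pairs, near 0, did turn sign, such as Cdca8 in the model against the control group (-0.083 to 0.597). Among the 33 pairs alone, leaving out 1 rat moved 3 log2 fold changes by over 1.5 times as a fold, none of them called. Cenpf in the model against the control group went to 2.39 without control rat 1. In the DSS against the model group Top2a went to -2.46 and Ccnb1 to -2.22 without DSS rat 3. Pairs outside the 33 could move more. Aurkb in the DSS against the model group, at -1.39, lay between -3.55 and -0.844 under the alternatives. Library size alone shifted the median of all genes by -0.146 and -0.136 (log2) in the comparisons with the control group, and there it turned the sign of Cdk1, Rrm1, Aurka, Birc5 and Nusap1, all under 0.1 in size. Members with few counts can miss a difference at this depth, and 5, 9 and 9 members did not pass the filter in the 3 comparisons.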
